A study of Mus musculus with 4 samples.

Results

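The 6 genes described here encode proteins that the liver is best known for secreting into blood: Fga, Fgb and Fgg, Lect2, Serpina10 and Ttr. They were taken by symbol from the 32285 genes of the deposited lists, and all 6 were present. They had been picked because earlier results from the same libraries showed them in proximal tubule. Their shares in that class and the mutant and wild-type values below are therefore a description. Mouse kidney was dissociated, live cells were sorted, and 3′ droplet libraries were sequenced. 2 libraries came from mice with a point mutation of TrnE, which encodes the glutamate transfer RNA of mitochondria, with mutation loads of 79% (mutant 1) and 76% (mutant 2) per the labels. The other 2 came from C57BL/6J wild-type mice (wild type 1 and wild type 2). The labels give no age, sex or litter. Nothing in the labels says that the libraries of a group came from separate litters or days, so p-values measure only the spread between these libraries, which may be technical.

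Fibrinogen is built from paired copies of 3 chains, Aα, Bβ and γ, encoded by Fga, Fgb and Fgg, and thrombin turns it into the fibrin of a clot. Hepatocytes make it as an acute phase protein under interleukin-6 and STAT3, and injured renal tubules are also known to express it. Serpina10 is the protein Z-dependent inhibitor of coagulation factor Xa. Lect2 is a secreted chemotactic factor that can deposit as amyloid in the kidney. Ttr, transthyretin, carries thyroxine and retinol-binding protein, and its liver output falls in an acute phase response. The proximal tubule reabsorbs filtered plasma proteins along segments S1, S2 and S3.

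The libraries held 65565948 and 70013861 unique molecular identifiers (UMIs, counted RNA molecules) in mutants 1 and 2 and 42121175 and 59946996 in wild types 1 and 2. After filtering, 30428 cells remained, of which 9377 were proximal tubule cells: 2664 and 1250 in the mutants against 1690 and 3773 in the wild types. All 8 general proximal tubule markers were detected in each library and summed to 14490 to 16680 CPM (UMIs scaled to 1000000 per library and class) in that class. Wild type 2 stood apart in composition, with 59.8% of its cells in the proximal tubule against 14.0% to 29.8% in the others. The deposited name of wild type 1 follows the pattern of the name of mutant 2, the name of mutant 1 carries a number other than its load, and the counts cannot check the genotype, so groups follow the labels. Pairs of libraries shared 14 to 26 cell barcodes. The file headers give Cell Ranger 7.0.0 for both mutants and 7.1.0 for both wild types, so version and genotype cannot be told apart.

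The fibrinogen genes lie side by side on chromosome 3 of mm10 within 42.1 kb: Fgg (ENSMUSG00000033860, 83007724 to 83015049, plus strand), Fga (ENSMUSG00000028001, 83026076 to 83033627, plus strand) and Fgb (ENSMUSG00000033831, 83040141 to 83049863, minus strand). Lect2 (ENSMUSG00000021539) lies on chromosome 13 from 56542464 to 56548502. Serpina10 (ENSMUSG00000061947) lies on chromosome 12 from 103614786 to 103631444. The bases upstream of the 3 fibrinogen genes are shown because these neighbours share a product and were described together, from RefSeq on GRCm38.p6, 5′ to 3′ on the gene's strand, with capitals for matches to the STAT letters TTCNNNGAA.
Fga, chr3:83025903-83026075, plus strand: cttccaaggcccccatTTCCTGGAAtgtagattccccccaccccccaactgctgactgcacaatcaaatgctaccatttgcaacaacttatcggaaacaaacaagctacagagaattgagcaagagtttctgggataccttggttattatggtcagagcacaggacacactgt
Fgb, chr3:83049864-83050113, minus strand: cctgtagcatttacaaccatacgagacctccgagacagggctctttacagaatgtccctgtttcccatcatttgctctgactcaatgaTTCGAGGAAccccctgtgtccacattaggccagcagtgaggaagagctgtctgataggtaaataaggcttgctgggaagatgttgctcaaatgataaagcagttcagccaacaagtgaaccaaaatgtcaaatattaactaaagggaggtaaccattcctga
Fgg, chr3:83007474-83007723, plus strand: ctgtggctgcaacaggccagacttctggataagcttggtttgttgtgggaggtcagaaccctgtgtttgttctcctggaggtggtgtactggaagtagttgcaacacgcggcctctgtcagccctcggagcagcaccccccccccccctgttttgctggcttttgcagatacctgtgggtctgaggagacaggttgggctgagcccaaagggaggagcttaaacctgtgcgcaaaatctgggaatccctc
The Fga window ends 78 bases before the RefSeq start, where the GENCODE M21 gene begins, and the other windows run to the start. Over 250 bases upstream on both strands, TTCNNNGAA occurred in Fga (234 to 226 bases before the start) and Fgb (162 to 154 before it), and not in Fgg or Lect2. The same letters occurred in 7.02% of 32851 promoters of that length. The HNF1 letters GTTAATNAT occurred in Fga only of these 4 genes, 46 to 38 bases before the RefSeq start, against 0.737% of promoters. The letters CAAAGTCCA (HNF4), TTGCGCAA (C/EBP) and TGATGNAA (ATF4) occurred in none of the 4 windows, against 0.384%, 0.164% and 3.45% of promoters. A match describes letters and does not show binding.

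The UMIs of all 6 genes came mostly from proximal tubule cells, with the lowest share for Serpina10. The genes had been picked for their presence there, so high shares follow in part from the choice. Ttr (ENSMUSG00000061808) lies on chromosome 18. That class held 26.9% of all UMIs but 96.5% of the Fga, 95.1% of the Fgb, 95.3% of the Fgg and 95.7% of the Ttr UMIs. The share was 91.4% of 93 UMIs for Lect2. Serpina10 had 69.1% of its 181 UMIs there. Serpina10 was also found in the thick ascending limb (4.77 and 19.1 CPM in mutants 1 and 2, 9.03 and 2.35 CPM in wild types 1 and 2) and in principal cells of the collecting duct (2.26 and 7.21 CPM in mutants, 2.95 and 0 CPM in wild types). In both of these classes the groups overlapped. The share of Serpina10 UMIs in the proximal tubule ranged from 43.8% to 89.7% over libraries.

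In proximal tubule cells the 3 fibrinogen chains, Lect2 and Serpina10 stood higher in each mutant library than in either wild type, while Ttr stood lower. Of all 13314 genes tested there, 15.9% had both mutant values above both wild-type values, and the genes were picked on this contrast. Fgg, the γ chain, measured 58.5 and 58.6 CPM in mutants 1 and 2 and 19.2 and 21.5 CPM in wild types 1 and 2. The means were 58.5 ± 0.0844 and 20.3 ± 1.68 CPM (SD, n = 2 libraries each), a log2 fold change of 1.73 (SE 0.36, edgeR). The mutant values nearly coincided and lay far above both wild types.
Fgb, the Bβ chain, measured 19.9 and 16.8 CPM in the mutants and 6.93 and 7.93 CPM in the wild types. The means were 18.4 ± 2.19 and 7.43 ± 0.708 CPM (SD, n = 2), a log2 fold change of 1.51 (SE 0.34). Fga, the Aα chain, measured 21.2 and 17.8 CPM in the mutants and 10.1 and 14.0 CPM in the wild types. The means were 19.5 ± 2.39 and 12.04 ± 2.76 CPM (SD, n = 2), a log2 fold change of 0.91 (SE 0.32). Fga thus had the smallest fold change of the 3 chains and the least room between the groups.
Lect2 was sparse: 30 and 47 UMIs in the mutants (2.21 and 7.61 CPM) and 3 and 5 UMIs in the wild types (0.306 and 0.179 CPM), or 4.91 ± 3.82 against 0.243 ± 0.0893 CPM (SD, n = 2). Mutant 2 alone held most of its UMIs, and the fitted log2 fold change of 4.67 (SE 0.81) rests on those few wild-type molecules. Serpina10 measured 3.75 and 6.63 CPM in the mutants and 0.713 and 0.933 CPM in the wild types, or 5.19 ± 2.04 against 0.823 ± 0.155 CPM (SD, n = 2), a log2 fold change of 2.86 (SE 0.58). Ttr measured 76.7 and 87.2 CPM in the mutants and 118 and 99.8 CPM in the wild types, or 82.0 ± 7.44 against 109 ± 13.1 CPM (SD, n = 2), a log2 fold change of -0.23 (SE 0.41), smaller in size than its standard error.
In the edgeR quasi-likelihood fit over 13314 genes with Benjamini-Hochberg adjustment, 4 of the 6 members (Fgb, Fgg, Lect2 and Serpina10) were higher past an adjusted p of 0.05, and Fga and Ttr were not past it. In the same fit 0.916% of all genes were higher in the mutants past that threshold, and 1.06% changed in either direction. The genes were picked on this contrast, so nothing is read from their count. In sums per class, more cells with the transcript and more transcript per cell cannot be told apart, and the values per cell are given further on.

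**Figure D1:**
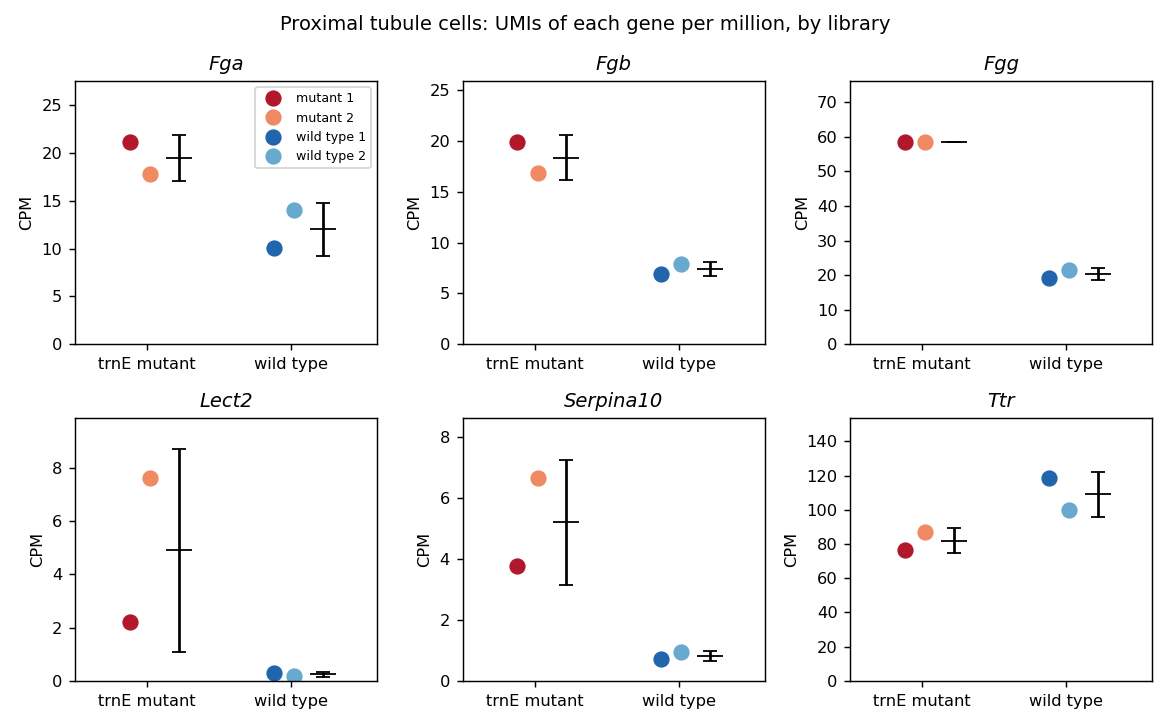
Level of each gene in proximal tubule cells (y axis, CPM, linear from 0) in the 2 trnE mutant and 2 wild-type libraries. Points are libraries and the black bar beside them is the mean ± SD (n = 2). Fga, Fgb, Fgg, Lect2 and Serpina10 are above both wild types in both mutants, and Ttr is lower.

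Calls depended on the libraries and the scaling. With each library scaled to its plain total the fit called no gene (1291 genes at an unadjusted p under 0.05), and leaving out wild type 2 also left none (796 genes), while leaving out wild type 1 called 2953. Keeping the cells called doublets left 1 call (1085 genes at an unadjusted p under 0.05). Leaving out mutant 2 left 130 calls but none of the 4 members among them (edgeR adjusted p 0.215 for Fgb, 0.297 for Fgg, 0.365 for Lect2 and 0.395 for Serpina10), and leaving out mutant 1 ended the calls of Fgb (0.187) and Fgg (0.118). The direction of Ttr turned without wild type 1 (log2 fold change 0.15).

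Markers of some other cell types moved with the groups in the same proximal tubule sums. The 9 macrophage markers, all detected in each library, summed to 488 to 834 CPM in the mutants and 201 to 353 CPM in the wild types. The 8 T cell markers, also all detected, summed to 79.1 to 206 CPM and 31.8 to 34.2 CPM. The 9 endothelial markers summed to 25.4 to 47.1 CPM and 9.47 to 24.6 CPM, and the 7 intercalated cell markers to 19.4 to 30.2 CPM and 7.57 to 9.27 CPM. Markers of other types overlapped between the groups. B cell markers, for example, summed to 9.71 to 21.9 CPM and 15.7 to 25.6 CPM, and plasma cell markers to 84.6 to 87.9 CPM and 74.9 to 133 CPM. Fgg itself measured at most 4.77 CPM in macrophages, 2.14 CPM in T cells and 2.60 CPM in endothelium. In intercalated cells it measured 6.27 and 1.65 CPM in the mutants and 3.09 and 0 CPM in the wild types, from 8, 1, 1 and 0 UMIs, so the groups overlapped. The part of these markers in the result was not tested.
Hepatocyte markers were measured directly, because the members are hepatocyte products. Of 11 such markers 7 or 8 were detected per library, and their summed level was 134 to 202 CPM in the mutants and 74.8 to 115 CPM in the wild types. Most of that sum was Cyp2e1, a cytochrome P450 (67.5 and 128 CPM in the mutants, 57.4 and 34.1 CPM in the wild types), and Serpina1a, an α1-antitrypsin. Cyp2e1 was also among the S2 markers used here, so the sum is not particular to hepatocytes. In the wild types Apoa2 stood above Serpina1a. Apoa2 measured 20.2 and 22.5 CPM in the mutants and 19.1 and 17.2 CPM in the wild types, and Apoc3 14.4 and 10.2 against 12.8 and 11.7 CPM. Alb, serum albumin, measured 9.49 and 11.2 CPM in the mutants and 13.3 and 6.89 CPM in the wild types, so its groups overlapped. Ahsg, Mup3 and Mup20 had no UMI in any library, and Cps1 had 1 UMI in all 4 together. Median depth per proximal tubule cell was lower in the mutants (2820.5 and 3485.5 UMIs) than in the wild types (4329.5 and 4415 UMIs).

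Along the tubule the members differed in where they peaked. Fgg fell from S1-like to S2-like to S3-like cells within every library: in S1-like cells it measured 106 and 109 CPM in the mutants and 31.8 and 27.1 CPM in the wild types, in S2-like cells 50.8 and 35.8 against 16.2 and 17.7 CPM, and in S3-like cells 19.2 and 21.8 against 4.26 and 11.99 CPM. The mutants lay above the wild types in each segment. The S3-like values rest on 13, 7, 1 and 32 UMIs, and Fgg did not pass the filter on low counts there. Fgb had the same order and reached its floor in S3-like cells. It measured 36.5 and 33.1 CPM in the S1-like cells of the mutants and 16.2 and 14.4 CPM in those of the wild types. In S2-like cells Fgb measured 19.1 and 8.94 against 3.71 and 2.98 CPM. S3-like cells held 1 Fgb UMI in all 4 libraries, and the 0 in the mutants allows up to 3.00 CPM (3 counts over the group, counting error only).
Fga had no such order. It measured 28.3 and 33.5 against 17.5 and 15.9 CPM in S1-like cells, 28.1 and 11.3 against 9.39 and 12.8 CPM in S2-like cells, and 26.6 and 15.6 against 12.8 and 19.1 CPM in S3-like cells, mutants first. Only in S1-like cells did the Fga values of the 2 groups not overlap, and the S2-like and S3-like levels did not differ beyond their spread. S3-like cells carried Fga with almost no Fgb.
Lect2 was counted in S1-like cells (2.66 and 17.4 CPM in the mutants, 1 and 4 UMIs in the wild types) and in S2-like cells (3.07 and 3.11 CPM in the mutants, 2 and 0 UMIs in the wild types). No Lect2 UMI was found in S3-like cells, which allows up to 3.00 CPM in the mutants and 1.03 CPM in the wild types.
Serpina10 was highest in S3-like cells in all 4 libraries, at 7.38 and 34.2 CPM in the mutants and 17.03 and 6.37 CPM in the wild types, so the groups overlapped there. These values rest on 5, 11, 4 and 17 UMIs. In S1-like cells it measured 4.65 and 1.79 CPM in the mutants and 0.662 and 0.243 CPM in the wild types. In S2-like cells Serpina10 measured 3.89 and 9.72 CPM in the mutants and 0.218 and 0.481 CPM in the wild types. The groups thus did not overlap in S1-like and S2-like cells, where the wild types held 1 to 5 UMIs per library and segment.
Ttr was lowest in S2-like cells in every library (36.5 and 41.2 CPM in the mutants, 31.7 and 63.3 CPM in the wild types). It measured 368 and 146 against 315 and 222 CPM in S3-like cells and 108 and 162 against 267 and 117 CPM in S1-like cells. The groups overlapped in all 3 segments. The S2-like class pools clusters in which Ttr went different ways. In the larger one (1920 cells) Ttr measured 4.56 and 36.9 CPM in the mutants and 31.6 and 100.4 CPM in the wild types, and it was called lower by edgeR (log2 fold change -1.61, SE 0.38, adjusted p = 0.0166) beside 0.111% of all genes, although mutant 2 lay above wild type 1. In the deeper one (862 cells), where no test was run, both mutants (58.2 and 57.7 CPM) lay above both wild types (31.7 and 42.8 CPM). Fgg, in contrast, was higher in each mutant than in either wild type in both clusters, at 40.5 and 36.4 against 20.8 and 27.0 CPM in the larger and 57.8 and 33.5 against 8.90 and 12.6 CPM in the deeper. Unlike Ttr, Fgg was not called by edgeR in the larger cluster (log2 fold change 0.71, SE 0.34). Fgb (1.67, SE 0.60) and Fga (-0.38, SE 0.46) were not called there either.

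**Figure D2:**
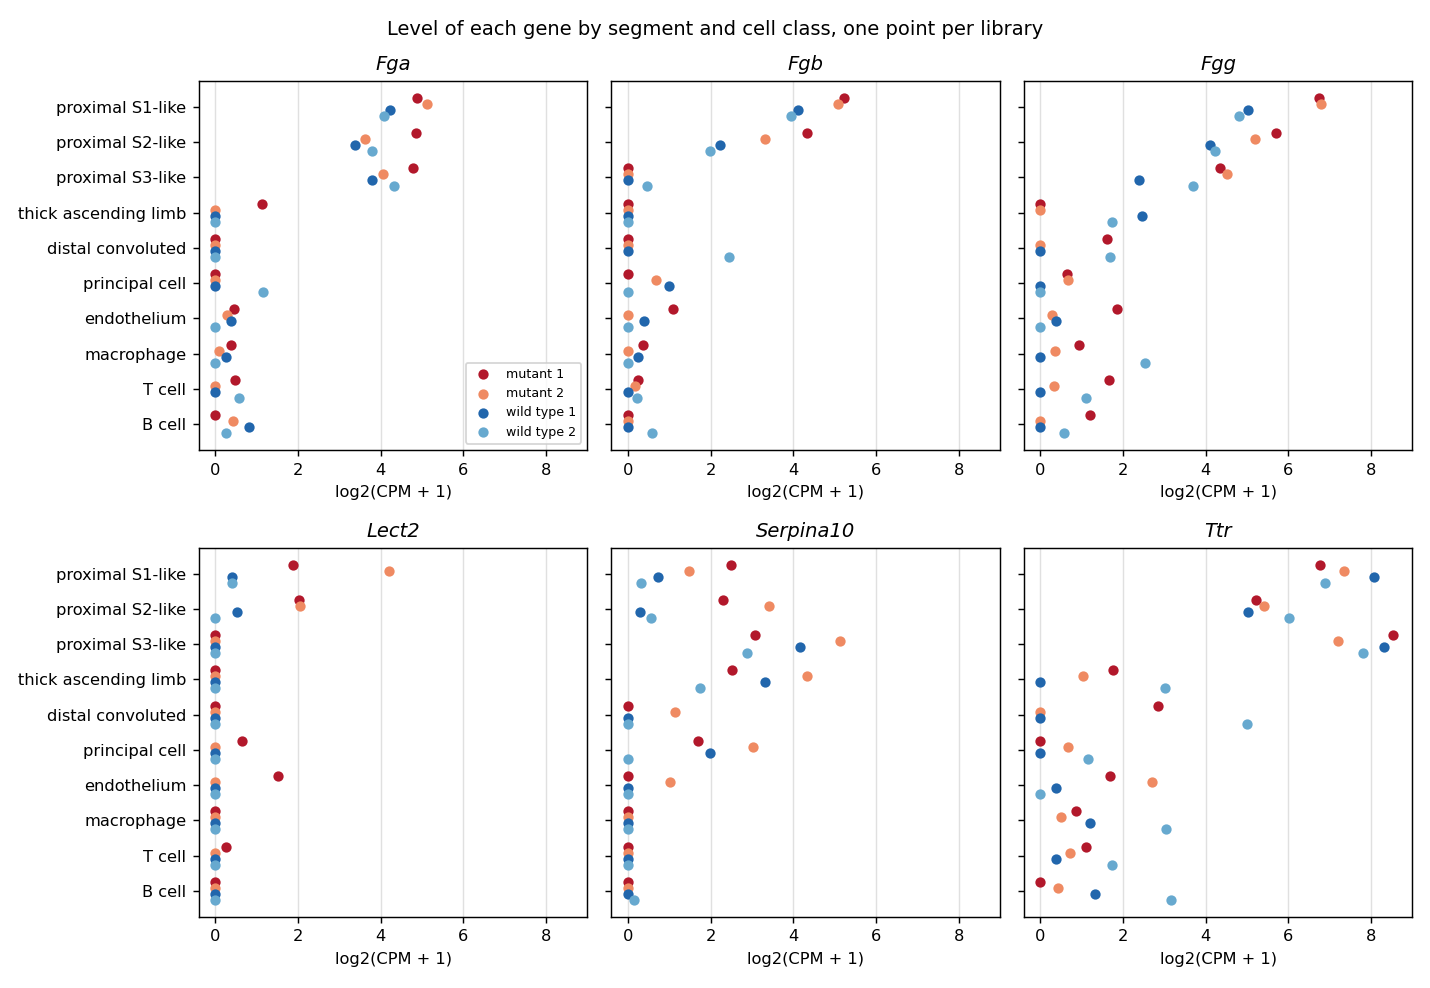
Level of each gene as log2(CPM + 1) (x axis) in proximal tubule segments and 7 other cell classes (y axis), with 1 point per library (n = 2 per genotype). Fga, Fgb, Fgg, Lect2 and Ttr are lower in every other class shown than in the S1-like and S2-like cells of both mutants, the closest being Ttr in the distal convoluted tubule of wild type 2, where 13 of 14 UMIs came from 1 cell, and Serpina10 is also present in the thick ascending limb and principal cells.

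Within S1-like cells Serpina10 did not pass the filter on low counts, and 2 of the 5 members tested (Fgg and Lect2) were higher in the mutants past the threshold, beside 0.927% of all genes. Within S2-like cells 4 of 6 (Fgb, Fgg, Lect2 and Serpina10) were, beside 0.849% of all genes. In S3-like cells Ttr alone passed the filter on low counts. Of the 5435 genes tested 0% were called (edgeR, 118 genes at an unadjusted p under 0.05, and 2 genes past the threshold by DESeq2). These contrasts are the ones the genes were picked on.
Whether the genotype effect differed between segments was tested as an interaction, for members with at least 20 UMIs in both. The S1-like minus S3-like difference in log2 fold change was 0.70 (SE 0.65) for Fga, 1.13 (SE 0.66) for Fgg, 2.36 (SE 1.24) for Serpina10 and -0.22 (SE 0.52) for Ttr, each with an adjusted p of 1 (edgeR). None of the 4 passed, where 0.181% of 11583 genes did. Serpina10 in proximal tubule minus thick ascending limb differed by 1.53 (SE 0.97, adjusted p = 1, edgeR), where 0.48% of 12927 genes passed. Against T cells the difference was 1.34 (SE 1.15) for Fgg and 0.56 (SE 0.81) for Ttr, with adjusted p = 1 for both and 0% of 14455 genes past the threshold (edgeR, 720 genes at an unadjusted p under 0.05). A segment or class difference in the genotype effect was therefore not shown for any member tested.
Proximal tubule clusters without a segment name, 3189 cells, behaved otherwise for Fgg. They held 1311 of 2664 and 359 of 1250 mutant cells and 452 of 1690 and 1067 of 3773 wild-type cells. The values of the whole class include them. In the shallower of these 2 clusters (median 816 UMIs) Fgg measured 21.85 and 14.1 CPM in the mutants and 21.90 and 23.4 CPM in the wild types, so both mutants lay below both wild types. These values rest on 21, 5, 4 and 17 UMIs. Genes leading this cluster within the class included Igkc, Lyz2, Cd74 and the plasma cell marker Jchain. In the other (median 3495.5 UMIs) Fgg measured 13.7 and 20.1 against 7.25 and 18.9 CPM, and the groups overlapped.

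The UMIs of each gene were spread unevenly over cells. An Fgg UMI was found in 11.3% and 13.4% of mutant proximal tubule cells (exact binomial 95% intervals 10.1% to 12.5% and 11.6% to 15.5%) and in 9.17% and 11.8% of wild-type cells (7.84% to 10.6% and 10.8% to 12.9%). These shares overlapped although the CPM did not. In T cells, which should lack the gene, the share was 0.703% and 0.140% in the mutants and 0 of 630 cells and 0.741% in the wild types, at median depths of 3589 and 5050 UMIs for the mutants and 4492.5 and 6883 UMIs for the wild types. The 0 of 630 allows a share of up to 0.476%, and the proximal tubule shares lay above all of these.
After each cell was thinned to 1000 UMIs, which left out 442 and 158 mutant and 87 and 669 wild-type cells, the Fgg share was 4.05% and 3.66% in the mutants against 1.75% and 2.48% in the wild types. Thinned shares were higher in each mutant than in either wild type for 4 members (Fgb, Fgg, Lect2 and Serpina10), with Fga overlapping. The same held for 14.6% of all 13314 genes tested, so such an order alone is common between these libraries. No Lect2 UMI remained in the wild types, which allows a share of up to 0.187% in wild type 1 and 0.0966% in wild type 2. The Ttr share went the other way, at 2.70% and 3.66% in the mutants against 4.99% and 5.73% in the wild types. With 2 libraries a group the smallest p an exact two-sided permutation test can give is 0.333.

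Cells with many Fgg UMIs were mostly mutant. At least 5 Fgg UMIs were counted in 30 of 2664 and 21 of 1250 mutant cells (1.13% and 1.68%) and in 1 of 1690 and 7 of 3773 wild-type cells (0.0592% and 0.186%). Among S1-like cells the shares were 4.39% and 4.57% in the mutants against 0.204% and 0.407% in the wild types. Median depth of S1-like cells was 5397 and 4653.5 UMIs in the mutants against 4716 and 6669 in the wild types, so depth did not follow the groups in that segment. Cells with at least 5 UMIs held 49.2% and 40.9% of the Fgg UMIs in the mutants against 3.19% and 8% in the wild types. This count of 5 was chosen after the values were seen.
1 S2-like cell of mutant 1 carried 90 Fgg, 49 Fgb and 43 Fga UMIs among 13663, with no Ttr UMI, 1 Alb UMI and 11 UMIs of the proximal phosphate transporter Slc34a1. Without that cell mutant 1 measured 51.9 CPM of Fgg, 16.3 CPM of Fgb and 18.0 CPM of Fga, still above both wild types. Lect2 was similarly concentrated, with 13 of the 47 UMIs of mutant 2 in 1 S1-like cell that also held 5 Fgg, 4 Fga and 2 Fgb UMIs. Without that cell mutant 2 measured 5.51 CPM of Lect2.

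Ttr came from rare cells of both genotypes. A Ttr UMI was found in 4.99% and 6.00% of mutant and 8.82% and 11.1% of wild-type proximal tubule cells, against 0.391% and 0.280% of mutant and 0.159% and 1.73% of wild-type T cells. At least 10 Ttr UMIs were counted in 29 and 15 mutant cells (1.09% and 1.20%) and in 34 and 64 wild-type cells (2.01% and 1.70%), and those cells held 78.8% and 69.6% of the Ttr UMIs in the mutants against 74.2% and 68.5% in the wild types. The highest count was 152 Ttr UMIs in an S3-like cell of wild type 2 with 4495 UMIs in all, and the highest cells of the other libraries held 84 to 107. Of these 4 cells, that of mutant 1 held 3 Fga UMIs, that of wild type 1 held 1 Fgg UMI and the others held no fibrinogen UMI.
S1-like cells with at least 5 Ttr UMIs (22, 15, 32 and 69 cells in mutants 1 and 2 and wild types 1 and 2) were compared with S1-like cells without a Ttr UMI. Of 3065 other genes averaging at least 50 CPM, 0 were at least 2-fold higher and 0 at least 2-fold lower in the Ttr-rich cells of all 4 libraries, which is a description without a test. Slc34a1 was 4578 against 4036 CPM in mutant 1 and 4074 against 4624 CPM in wild type 2, and it was higher in the Ttr-rich cells of 2 of 4 libraries. In some classes outside the proximal tubule, 1 cell held most of a library's Ttr UMIs. Examples were 64 of the 80 in B cells of wild type 2 and 21 of the 27 in endothelium of mutant 2. In mutant 1 and wild type 1 no cell outside the proximal tubule held 5 or more of the 42 and 17 Ttr UMIs found there.

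**Figure D3:**
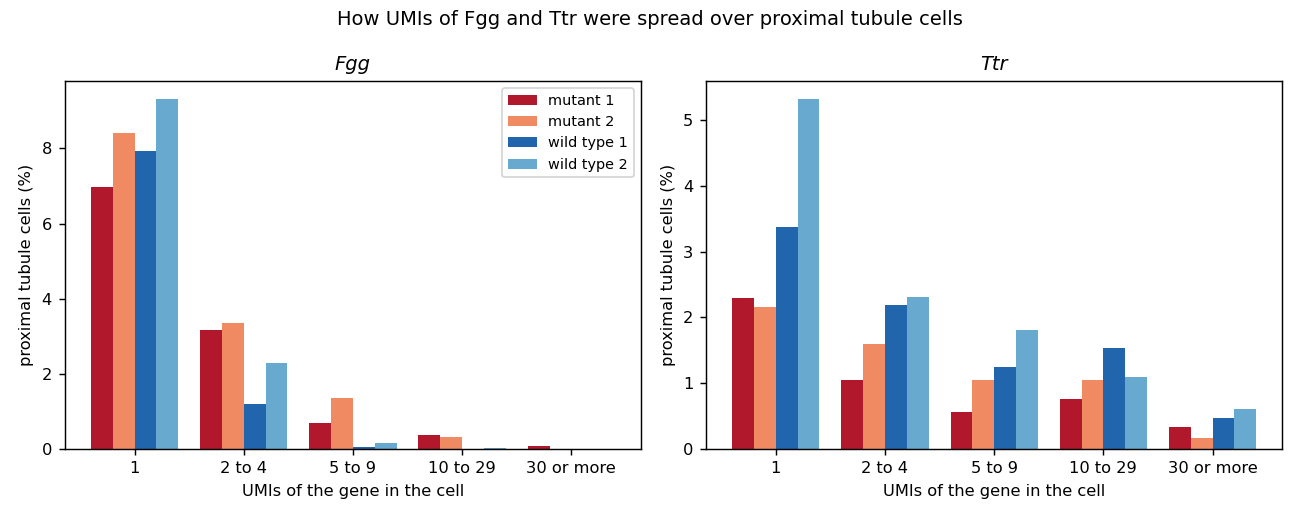
Share of proximal tubule cells (y axis, percent) by the number of UMIs of Fgg (left) or Ttr (right) in the cell (x axis), for each of the 4 libraries. Shares with 1 Fgg UMI overlap between genotypes, while cells with 5 or more are mostly mutant, and Ttr-rich cells with 30 or more UMIs occur in all 4 libraries.

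The fibrinogen chains were found in the same cells more often than their shares give. Among S1-like cells, Fga and Fgg were both present in 149 cells against 64.8 expected from the product of their shares, Fgb and Fgg in 135 against 72.2, and Fga and Fgb in 83 against 40.7 (sums over 4 libraries). Deeper cells hold more UMIs of every gene, so the product was also taken within 5 groups of cells by depth in each library. The expected numbers were then 91.1, 94.5 and 57.7, and the observed ones 1.64, 1.43 and 1.44 times as many. Each of the 3 pairs exceeded its depth-matched number in all 4 libraries, by 1.20 to 2.27 times. Ttr with Fgg was found in 70 cells against 70.9 expected, a ratio of 0.988, and Ttr with Fga in 56 against 42.7. An excess was not particular to the chains. Fgb with Lect2 was found in 9 cells against 5.28 expected (ratio 1.704), and Fgg with Serpina10 in 10 against 6.23 (1.605). Fgg with Lect2 stood at 1.04. In S2-like cells of wild type 2 the ratios were 1.05 for Fga with Fgg, 1.03 for Fgb with Fgg and 1.52 for Fga with Fgb. These are counts within libraries and carry no test.
S1-like cells with an Fgg UMI were deeper than those without (medians 12353 and 4039 UMIs in mutant 1, 12284 and 6184 in wild type 2). On the CPM scale, cells with Fgg held more Fga in 4 of 4 libraries (53.1, 62.7, 35.6 and 29.2 CPM against 10.3, 17.9, 13.2 and 11.5 CPM, in the library order above) and more Fgb in 4 of 4. Of 3097 genes averaging at least 50 CPM, 0 were at least 2-fold higher and 0 at least 2-fold lower in all 4 libraries. Fga and Fgb averaged less and were not among them. Of the listed genes read below, Spp1 was higher with Fgg in 4 of 4 libraries (5613, 7764, 3608 and 1833 against 2642, 3915, 2772 and 1343 CPM). Cfi, C3 and C4b were also higher in 4 of 4, and Vim and Gdf15 in 0 of 4. Psat1, of the same stress response list as Gdf15, was higher in 4 of 4, as were Cfb, Proc, Apob, Apoe, Trf and Hnf4g. The order thus differed within both the injury and the stress response lists. The share of all genes with such orders was not counted. These genes were named after their values were seen.

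**Figure D4:**
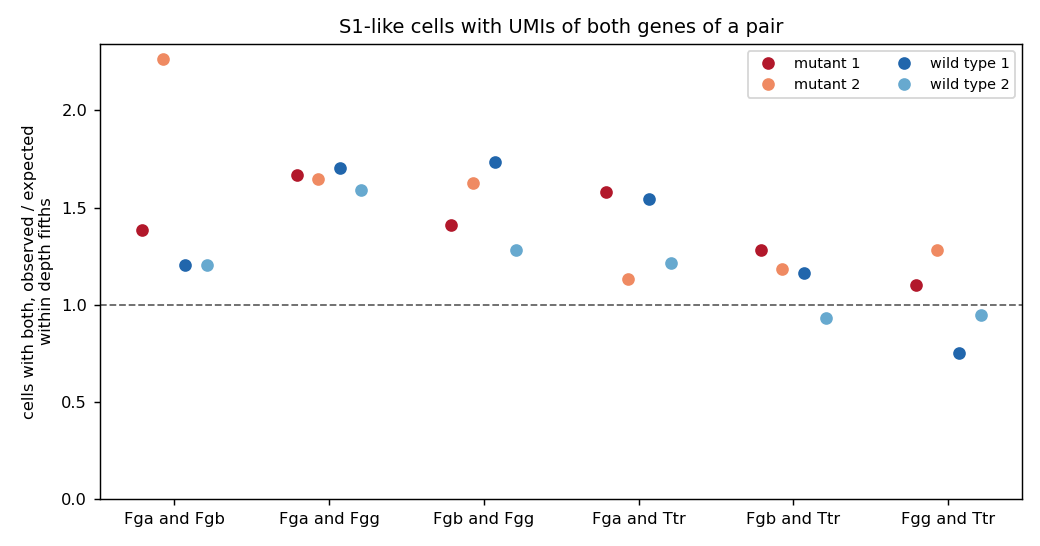
S1-like cells with UMIs of both genes of a pair, as the observed number over the number expected within 5 groups of cells by depth (y axis, from 0), for 6 pairs (x axis) in the 4 libraries. The 3 fibrinogen pairs lie above 1 in all 4 libraries (1.20 to 2.27), and Fgg with Ttr lies on both sides of 1.

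Other secreted liver proteins were read from lists of genes, with counts in the proximal tubule fit beside the median log2 fold change of 0.015 over all 13314 genes tested and the 0.916% of them called higher. The lists were chosen with earlier results of these data known, so their counts are a description. With 2 libraries a group, a gene that was not called is not shown to be unchanged. Of 18 coagulation and fibrinolysis proteins 7 were tested and none was called (median 0.0006). Proc, the precursor of activated protein C, measured 65.1 and 94.0 CPM in the mutants and 84.1 and 67.3 CPM in the wild types. Of 14 liver serpins 5 were tested and none was called (median 0.65). Serpina1a measured 21.9 and 28.8 CPM in the mutants against 12.4 and 4.34 CPM (log2 fold change 1.77, SE 0.48, edgeR adjusted p = 0.103). Of 24 plasma carriers and apolipoproteins 15 were tested and none was called (median 0.29). Agt, angiotensinogen, measured 10.96 and 23.1 CPM against 8.46 and 10.7 CPM.
Of 24 acute phase proteins 6 were tested and 3 were higher (median 1.67), beside 0.916% of all genes. All 3 were complement genes. Among other genes of the list, S1-like cells held 0 UMIs of Saa1, Saa2, Saa4, Orm1, Orm2, Crp and Hamp. They held 1 UMI of Saa3, 24 of Hp and 3409 of Cfb, a complement gene that the proximal tubule fit did not call. These counts cover S1-like cells only, while the fit covers the whole proximal tubule class. Cfi, complement factor I, measured 24.6 and 48.1 CPM in the mutants and 9.48 and 10.3 CPM in the wild types (edgeR log2 fold change 2.11 with SE 0.40 and adjusted p = 0.0196). C3, the central complement component, measured 15.7 and 24.4 CPM against 6.22 and 5.56 CPM (edgeR log2 fold change 1.98 with SE 0.39 and adjusted p = 0.0216). C4b rose as well (edgeR log2 fold change 2.28 with SE 0.49 and adjusted p = 0.0303), and Cp, ceruloplasmin, did not pass (0.52, SE 0.44).
None of the 10 tested genes of interleukin-6 family signalling was called (median 0.002). Cebpb, a factor of the acute phase response, measured 79.6 and 40.3 CPM in the mutants and 34.3 and 26.8 CPM in the wild types (edgeR log2 fold change 1.12 with SE 0.39 and adjusted p = 0.261). None of the 8 tested transcription factors shared by hepatocytes and proximal tubule was called (median -0.37). Hnf4g had the lowest p of them, at 66.2 and 57.0 CPM against 135 and 216 CPM (log2 fold change -1.28, SE 0.41, edgeR adjusted p = 0.197).
Of 13 tested fibrinogen receptors and fibrin turnover genes (median 0.41) 1 was higher, Anxa2, a plasminogen receptor on cell surfaces (15.4 and 10.0 CPM against 4.69 and 2.33 CPM, edgeR log2 fold change 2.04 with SE 0.46 and adjusted p = 0.0406). Of 6 tested receptors and partners of Lect2, Ttr and Serpina10 (median -0.48), only Cd209a was higher, a lectin of immune cells that was named after its value was seen. Lrp2 (megalin), which takes up Ttr, measured 1005 and 802 CPM in the mutants and 935 and 1946 CPM in the wild types.
Tubular injury genes were higher for 4 of 12 tested (Vim, Clu, Vcam1 and Hspb1, median 2.34), beside the same 0.916% of all genes, with Vim, an intermediate filament protein, at 24.0 and 26.5 CPM against 6.22 and 7.86 CPM. Integrated stress response genes were higher for 3 of 12 (Gdf15, Atf5 and Nupr1, median 0.95), with Gdf15, a stress cytokine, at 58.9 and 20.1 CPM against 6.73 and 11.5 CPM. Vcam1, Hspb1 and Nupr1, with means under 5 CPM, were named after their values were seen. All of these list calls come from the fit that lost its calls under plain totals and without wild type 2. Markers of some other cell types, given above, moved with them.

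Over 10 classes and 4 libraries (40 sums, 7890 genes of 10 CPM or more in proximal tubule), the patterns most like each member were measured by Pearson correlation of log2(CPM + 1). The sums of 1 library share its depth, and the values are a description. Fga was most like Ces1f (r = 0.915), Serpina1d and Pxmp4, Fgb was most like Slc22a19 (r = 0.930), Cgref1 and Akr1c20, and Fgg was most like Fabp1 (r = 0.920), Cda and Acmsd. Lect2 was most like Serpina1a (r = 0.768), Ces1f and Asl, and Ttr was most like Ugt3a1 (r = 0.906), Prodh2 and Cat. Serpina10 differed, with Bmp4 (r = 0.870), Thsd4 and Rarres2. Across the 12 sums of segment and library, Fgb and Fgg correlated at r = 0.841 and Fgg and Lect2 at 0.804, while Fgg and Ttr stood at -0.276 and Fgb and Serpina10 at -0.545. Fga correlated at 0.645 with Fgg and 0.385 with Fgb. These sums hold both genotypes, and the members were picked on that contrast, so the correlations follow in part from the choice.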

How the data were processed

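The authors deposited 1 matrix of UMI counts per library, as whole-number counts per gene and cell barcode from Cell Ranger 7.0.0 (mutants) or 7.1.0 (wild types), per the file headers, on mm10, per the submitters' processing notes. Its settings for intronic reads and cell calling were not given in the sources used here.

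Cells needed a minimum of 500 UMIs and 200 genes and at most 50% mitochondrial UMIs, called doublets were removed, and 30428 cells were clustered with scanpy 1.11.5 and leidenalg 0.10.2 (30 components, resolution 1) into 34 clusters without the 6 genes, 4 of which were among the variable genes. Clusters were named from marker lists, and segments where the leading segment score exceeded the next by 0.5, a limit set after seeing the data. Names may differ from the study's own. Counts were summed per library and class and tested with edgeR 4.0.16 (quasi-likelihood, TMM scaling, default filter on low counts, Benjamini-Hochberg threshold 0.05), mutants against wild types, without a replicate block. Each SE given with an edgeR log2 fold change was derived as the size of that change over the square root of the test's F statistic. DESeq2 1.42.0, other scalings, filters and left-out libraries were alternatives. The scripts were tested on simulated data. Shares of cells carry exact binomial intervals for counting error only. From each list, up to 4 genes of lowest p with a mean of at least 5 CPM were named, and for each member the 3 genes most like it. The members and lists were chosen with earlier results of these data known.

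Nothing in the labels pairs the libraries. Deviations of same-numbered libraries correlated at -0.167 over 13314 genes, a single value that cannot show whether libraries are paired.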

Additional observations from a re-analysis of the deposited data

How the results depend on the processing

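With libraries scaled to plain totals, which moved the median log2 fold change of all genes from 0.015 to -0.195, 0 genes passed in proximal tubule (1291 at an unadjusted p under 0.05), S1-like (607) and S2-like cells (1063) by edgeR, and the proximal tubule log2 fold changes were 1.303 for Fgb, 1.52 for Fgg, 4.36 for Lect2 and 2.60 for Serpina10, none past the threshold. With called doublets kept, 1, 32 and 3 genes passed in proximal tubule, S2-like and S3-like cells, and the folds were 1.54, 1.77, 4.38 and 2.96 in the same order, none past it. Leaving out mitochondrial genes gave 1.503 for Fgb, and leaving out clusters without a segment name gave 35 genes, with 1.59 for Fgb and 2.91 for Serpina10, each past it no longer. Without a filter on low counts 452, 351, 304 and 19 genes passed in proximal tubule, S1-like, S2-like and S3-like cells, against 141, 115, 127 and 0. DESeq2 gave 72 in S2-like and 2 in S3-like cells, at most 25% mitochondrial UMIs gave 73 in S2-like cells, the mitochondria-richer S1-like cluster alone gave 27, and RLE scaling gave 37 for the S1-like minus S3-like difference, against 21. The cause was not tested for any of these.

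With each library left out in turn, and a lone library assumed to vary like the other group, 0 (without wild type 2) to 2953 (without wild type 1) genes passed in proximal tubule, 62 to 526 in S1-like, 0 to 458 in S2-like and 0 to 34 in S3-like cells. For the differences, 3 to 38 passed for S1-like minus S3-like, 7 to 52 against thick ascending limb (62 with all libraries) and 20 to 130 against T cells. The proximal tubule log2 fold changes ranged from 1.40 to 1.63 for Fgb, 1.61 to 1.87 for Fgg, 3.37 to 5.40 for Lect2, 2.30 to 3.33 for Serpina10, 0.90 to 0.95 for Fga and -0.52 to 0.15 for Ttr. Without mutant 2 or without wild type 2 none of the 4 members called stayed past the threshold, and without mutant 1 Fgb and Fgg did not. Ttr also changed sign in S1-like (-0.98 to 0.65, with 0.03 without mutant 1), S2-like (-0.37 to 0.30, with 0.12 without mutant 1) and S3-like cells (-0.63 to 0.41, with 0.40 without wild type 1), and in S3-like cells without the low-count filter (0.0442) and with at least 1500 UMIs per cell (0.0435). The S1-like minus S3-like difference ran from -0.11 to 1.43 for Fga, -0.56 to 1.299 for Fgg and -1.303 to 0.88 for Ttr (0.12 without wild type 1). The difference from T cells ran from -4.19 to 3.02 for Fgg (-0.26 without mutant 2) and -2.05 to 1.45 for Ttr (-0.31 without mutant 2).

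With the replicate block 249 genes passed in proximal tubule, and with the numbers crossed 176. The libraries share only a number, so neither pairing is used. Of the 6 genes, Lect2 and Serpina10 are limited most by depth, with 85 and 125 UMIs in all proximal tubule cells.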
